A study of Bos taurus with 12 samples.

Results

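In tough beef, the high and the medium methylated eluates were compared region by region on chromosomes 1 to 29. Peaks of the 4 libraries (HTO_1 and HTO_2 from the high eluate, MTO_1 and MTO_2 from the medium eluate) that shared at least 1 bp were joined into 32218 regions. A region was high-only when both high libraries and neither medium library had a peak in it, medium-only in the opposite case, and all-4 when every library had one. These 3 classes held 13791 regions, 42.8% of the 32218. Over all 12 libraries of the series the same joining gave 74459 regions. Presence of a peak defined the classes, so the size of each class is a description and not a test.

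MBD-seq was performed on DNA from the longissimus muscle (lumborum in the paper, dorsi in the sample labels) of contemporaneous Angus steers of about a year of age, fed 1 diet. Tough (TO) animals had the greatest and tender (TE) animals the lowest Warner–Bratzler shear force, the force needed to cut the cooked meat. There were 2 animals of each kind, and each capture was eluted serially into fractions of high, medium and low methylation (first letter H, M or L of the library name). The sources differ on which salt concentration released the high fraction, so libraries are named by methylation level alone. That HTO_1 and MTO_1 came from the same animal, as did HTO_2 and MTO_2, was taken from their numbers and is not stated.

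In methyl-CpG binding domain sequencing, a binding protein pulls sheared DNA that carries methylated CpGs out of solution, and fragments with more methylated CpGs are held more tightly. Eluting in steps of salt therefore sorts fragments by the density of methylated CpGs rather than by the methylation of any single site. In mammals, CpG sites outside CpG islands are mostly methylated, and repeats and gene bodies carry much of that methylation. Muscle also holds several cell types, and in bulk DNA a change in cell composition and a change in methylation within a cell cannot be told apart. Genes, repeats, CpG content and sequence of the regions were not analysed here.

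The high libraries were shallower than the medium ones. After duplicates were removed, HTO_1 had 3677473 tags and HTO_2 had 3721723, whereas MTO_1 had 6010993 and MTO_2 had 5969045. On chromosomes 1 to 29 the lists held 10178 and 11879 peaks in the high eluate and 23982 and 24797 in the medium eluate. Depth and eluate thus moved together, and their parts in the number of peaks cannot be told apart. The shortest peak a list can hold is its estimated fragment length, which was 203 bp in both high libraries, 162 bp in MTO_1 and 175 bp in MTO_2.

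The first question was how far the 2 eluates marked the same regions. All-4 regions were the most frequent of the 3 classes, with 7567 regions (23.5% of all regions), followed by 6034 medium-only regions (18.7%). High-only regions were rare, with 190 (0.59%). Regions with a peak in a single library were 13604 (42.2%), and most of them came from the medium eluate, 6914 from MTO_2 and 5860 from MTO_1 against 542 from HTO_2 and 288 from HTO_1. Regions in 3 libraries numbered 3541 (11%), of which 2032 lacked HTO_1 and 1050 lacked HTO_2, while only 214 lacked MTO_1 and 245 lacked MTO_2. Of the peaks of HTO_1, 76.4% lay in all-4 regions, as did 65.4% of HTO_2, 33.3% of MTO_1 and 31.7% of MTO_2.

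**Figure D1:**
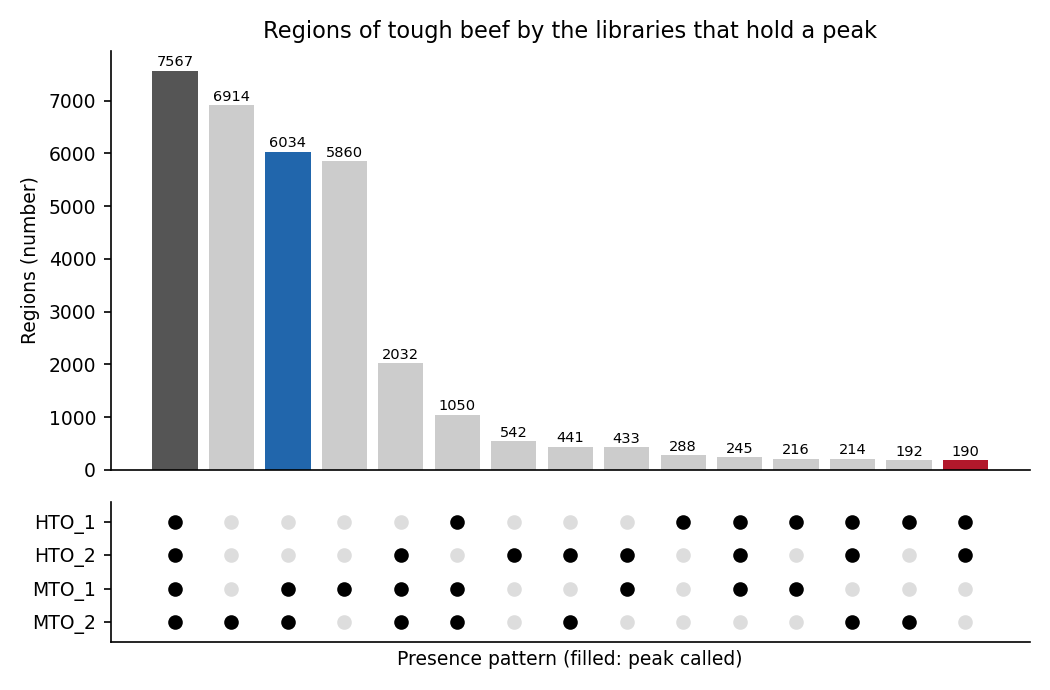
Number of regions of tough beef (vertical axis) for each of the 15 patterns of peak presence in HTO_1, HTO_2, MTO_1 and MTO_2, with a filled dot where the library had a peak. All-4 regions (7567) form the tallest bar, medium-only regions (6034) the third and high-only regions (190) the last.

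The order of high-only and medium-only counts depended on the length of the lists. When each library was limited to its 10550 peaks of lowest p-value over all chromosomes, the length of the HTO_1 list, there were 1298 high-only and 983 medium-only regions, and 5344 all-4 regions. A larger number of medium-only regions was thus a property of the full lists and was not seen at equal list length. Leaving out 1 library takes away 1 of the conditions that define a class, and the counts rose. They were between 410 (without MTO_2) and 740 (without HTO_1) for high-only regions. For medium-only regions they were 13050 without MTO_1 and 12059 without MTO_2.

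The classes differed in region width. The median width of all-4 regions was 416 bp (interquartile range 328 to 580 bp), that of high-only regions 326 bp (269 to 391 bp) and that of medium-only regions 263 bp (223 to 320 bp), against 207 bp for regions of all other patterns. The longest high-only region was 914 bp and the longest medium-only region 827 bp, whereas all-4 regions reached 4680 bp. Of the 491 regions of at least 1 kb, 485 were all-4 and none was high-only or medium-only. A region joined from 4 peaks is wider than 1 joined from 2 by construction, so peaks were also measured within each library.

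Within each library, peaks of all-4 regions were wider than those of the eluate's own class. In HTO_1 the median peak width was 249.5 bp in high-only and 306 bp in all-4 regions, and in HTO_2 it was 273 and 318 bp. In MTO_1 the median was 205 bp in medium-only and 336 bp in all-4 regions, and in MTO_2 it was 223 and 352 bp. Averaged over the 2 libraries the difference was 50.75 bp in the high and 130 bp in the medium eluate. Peaks at the shortest width a list allows made up 15.8% and 15.6% of high-only peaks, against 4.89% and 3.13% of all-4 peaks in the same libraries. In the medium libraries they made up 14.8% and 13.1% of medium-only peaks, against 1.58% and 1.34% of all-4 peaks.

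Pileup, the number of tags stacked at a peak's summit, was ranked as a percentile within each list (0 for the lowest, 100 for the highest). High-only peaks stood at a median rank of 37.0 in HTO_1 and 46.1 in HTO_2, below all-4 peaks at 59.0 and 65.8. Medium-only peaks stood at 38.6 in MTO_1 and 38.3 in MTO_2, below all-4 peaks at 78.5 and 80.3. In tags, the median pileup of high-only peaks was 13 and 16 against 89 in all-4 peaks of both high libraries, and that of medium-only peaks was 11 in both medium libraries against 124 and 125. Among the top 30% of a list by pileup rank there were no high-only peaks in HTO_1 and 2 in HTO_2, while 13.6% and 15.4% of medium-only peaks reached it.

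Over all peaks of a class, the order was the opposite for fold enrichment, the ratio of a peak to its local background. The median was 6.74 and 6.97 in high-only peaks against 5.62 and 6.13 in all-4 peaks of HTO_1 and HTO_2. It was 6.88 and 6.87 in medium-only peaks against 5.82 and 5.64 in all-4 peaks of MTO_1 and MTO_2. The -log10 q followed pileup instead, at 8.11 and 9.67 in high-only against 17.1 and 17.7 in all-4 peaks, and at 7.96 and 8.19 in medium-only against 18 and 17.2. The pileup order in the high eluate was not seen without the peaks of low fold enrichment. With peaks of a fold enrichment of at least 3 alone, regions and classes were built anew, giving 302 high-only and 4990 all-4 regions. The difference in rank, all-4 minus high-only, was then -6.44 instead of 20.9. The part of changed class members in this turn was not tested.

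**Figure D2:**
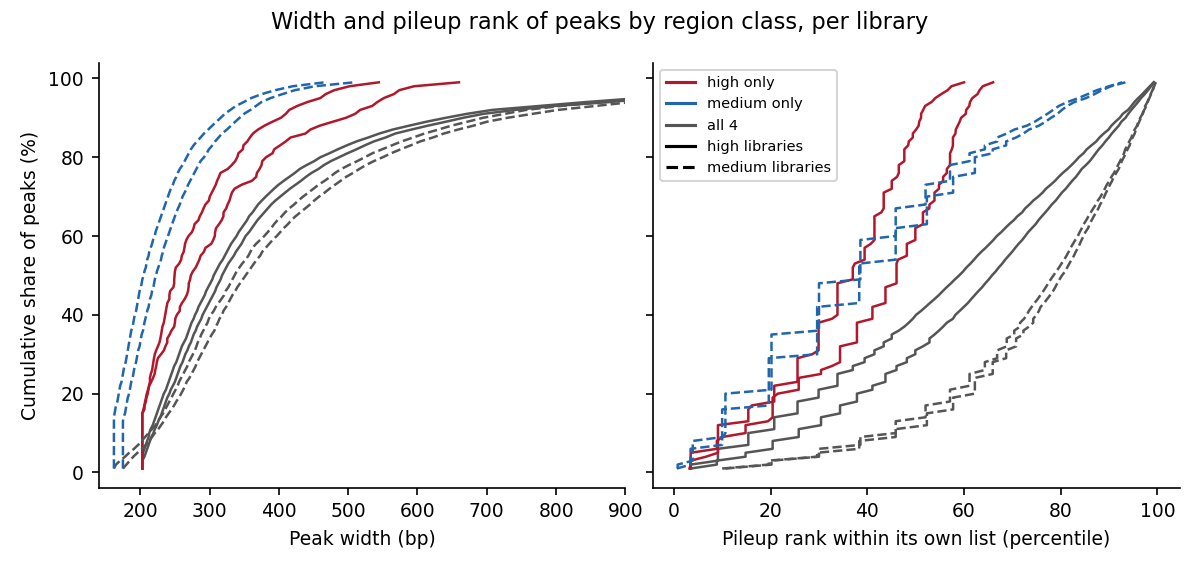
Cumulative share of peaks (vertical axis, %) by peak width in bp (left) and by pileup rank within the list in percentiles (right), with 1 line per library and region class, solid for high and dashed for medium libraries. Lines of all-4 peaks lie to the right of those of high-only and medium-only peaks of the same eluate in both panels over most of their range.

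All-4 regions were of more than 1 kind, and spacing separated them. Joined across gaps of up to 5 kb, 3565 of them (47.1%) stood alone, 841 lay in 332 groups of 2 to 4, and 3161 (41.8%) lay in 217 clusters of 5 or more. The 43 clusters of 20 or more regions held 1568 regions. The largest held 113 all-4 regions within 213 kb at chr27:28725293-28937908 (bosTau8). The next were 84 regions at chr8:74624922-74777516 and 84 at chr3:82708540-82856381, followed by 76 at chr5:114106488-114241683.

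Clustered and single all-4 regions carried very different signals at a similar peak width. The median pileup of single regions was 12 tags in HTO_1, 15 in HTO_2, 15 in MTO_1 and 16 in MTO_2. In clusters it was 195, 179, 212 and 211 tags. Fold enrichment ran the other way, with medians of 8.55, 9.38, 9.03 and 8.82 in single regions and 2.52, 2.49, 2.43 and 2.36 in clusters. Single all-4 regions thus stood above high-only and medium-only peaks in fold enrichment, and the lower median over all all-4 peaks did not hold outside clusters. Clusters were thus stretches of high tag cover in all 4 libraries. Their peaks rose little above a background that, without input, came from the same library within 10000 bp. Since clusters were chosen by gaps of up to 5 kb, neighbouring peaks enter that background. Their part in the low fold enrichment was not tested. Only 1 tag per position was kept, which limits how high a pileup can go. In the 4 libraries 40.1 to 47.7% of mapped tags were left. The part of this limit in the pileup and fold enrichment of clusters was not tested. Median widths were 296, 325, 334 and 359 bp in single and 299, 295, 333 and 338 bp in clustered regions, in the same order of libraries. Without the clusters, the difference in rank between all-4 and high-only peaks was 2.29 percentile points in the high libraries, and that between all-4 and medium-only peaks 29.3 in the medium libraries. Copy number of the clusters in the Angus genome was not analysed here.

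High-only and medium-only regions were spaced further apart than all-4 regions. The median distance to the nearest region of the same class was 284 kb for high-only, 51.0 kb for medium-only and 2.14 kb for all-4 regions, which differ in number. Of high-only regions, 19.5% (37 of 190, Wilson 95% interval 14.5 to 25.7%, counting error only) lay within 10 kb of an all-4 region, and of medium-only regions 18.5% did (1118 of 6034, 17.6 to 19.5%). The 2 intervals overlapped in the full lists, but the order of the shares turned with the peaks from which the classes were built. With a fold enrichment of at least 3 the shares were 38.7% of high-only and 10.6% of medium-only regions, and at 10550 peaks per library 11.1% and 37.8%. Both eluate-specific classes were mostly away from all-4 regions, whereas 56.0% of all-4 regions had another all-4 region within 10 kb. The nearest region of any pattern was at a median of 4.27 kb for high-only and 7.26 kb for medium-only regions.

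High-only regions lay towards the end of the chromosome more often than the other classes. The last 10% of the chromosomes, counted to the last base of any peak in the 12 lists, held 134 of 190 high-only regions, 70.5% (Wilson interval 63.7 to 76.6%). It held 30.3% of medium-only (29.1 to 31.4%), 23.6% of all-4 (22.7 to 24.6%) and 32.1% of all regions. This measure was chosen after the values were seen. In the first 10% the shares were 4.74%, 12.7% and 11.6% in the order high-only, medium-only, all-4. The median distance to the chromosome's end was 2.39 Mb for high-only, 24.4 Mb for medium-only and 32.8 Mb for all-4 regions. In the last 1 Mb lay 46 high-only regions (24.2%), against 5.62% of medium-only and 3.83% of all-4 regions. Without a peak in any low library, 72.1% of 179 high-only regions lay in the last 10%. So did 44.1% of 2122 medium-only and 48.6% of 1328 all-4 regions, so a raised share was not particular to high-only regions. High-only regions were found on all 29 chromosomes, in the last 10% of 27 of them, with at most 11 of those on 1 chromosome.

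The share fell with the number of medium libraries that shared a region. Of regions in both high libraries, 70.5% lay in the last 10% when no medium library had a peak, 52.5% of 459 regions when 1 had, and 23.6% when both had. Of regions in 1 high library the shares were 49.5% of 830, 43.2% of 1282 and 29.5% of 3082. Of regions in no high library, 35.1% lay there with 1 medium library and 30.3% with both. The lists as wholes did not show such a difference, at 27.3% and 29.6% of peaks in HTO_1 and HTO_2 against 30.1% and 29.6% in MTO_1 and MTO_2 (exact two-sided permutation test over 2 and 2 libraries, p = 0.667). Single all-4 regions lay in the last 10% in 32.2% and clustered ones in 15.9%.

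**Figure D3:**
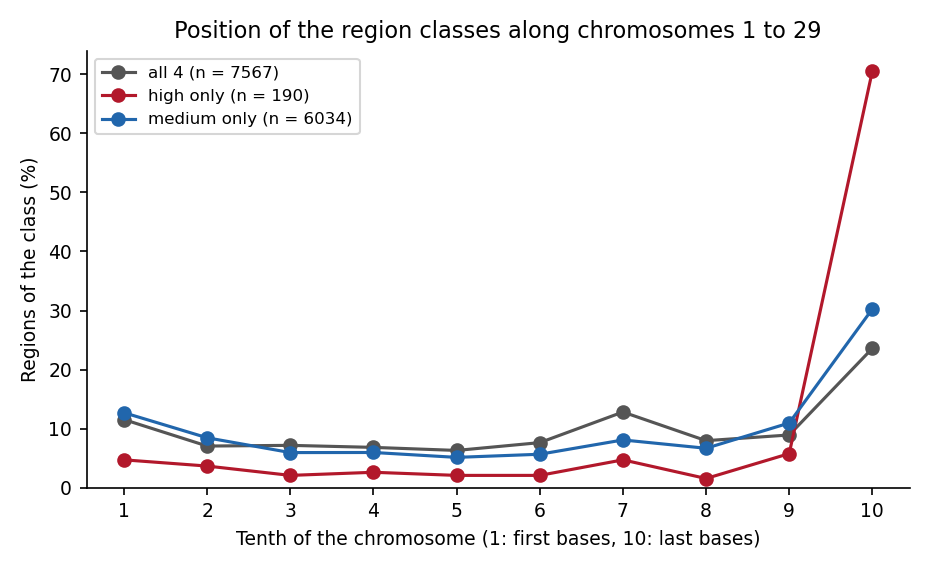
Share of the regions of each class (vertical axis, %) in each 10% of the chromosomes (horizontal axis, 1 for the first and 10 for the last bases), with 1 line per class. The line of high-only regions (n = 190) reaches 70.5% in the last 10%, above medium-only regions (30.3%) and all-4 regions (23.6%).

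The position was also taken within each animal, with the libraries of the same number as a pair, so that replicate presence was not needed. In pair 1 of tough beef, 49.5% of 939 regions with a high but no medium peak lay in the last 10%, against 33.3% of 14638 regions with a medium but no high peak. In pair 2 the shares were 53.4% of 1447 and 31.9% of 14330. In tender beef, where the regions were built from the tender lists themselves, pair 1 gave 53.5% of 1323 against 31.5% of 23750. Tender pair 2 gave 58.8% of 1423 against 32.0% of 23932. The difference was 18.9 ± 3.73 percentage points (SD, n = 2 pairs) in tough beef, where an exact sign-flip permutation test gives p = 0.5, its smallest value. Over the 4 pairs it was 21.7 ± 4.32 points and positive in 4 of 4 (exact sign-flip permutation test, two-sided, p = 0.125, the smallest possible). At 10550 peaks per library 53.9% of high-only and 18.2% of medium-only regions lay in the last 10%. Shares of high-only regions without 1 library were 55.1 to 62.8%.

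The classes were also spread differently over chromosomes. Chromosome 8 held 8.21% of all-4 regions (621), 4.16% of medium-only regions (251) and 1.05% of high-only regions (2). Chromosome 27 held 6.53% (494), 3.33% (201) and 2.11% (4) in the same order. Regions of all other patterns were at 3.54% on chromosome 8 and 2.56% on chromosome 27. On both, most all-4 regions lay in clusters of 5 or more, 440 of 621 on chromosome 8 (70.9%) and 344 of 494 on chromosome 27 (69.6%). Medium-only regions were more frequent than all-4 regions on chromosome 18 (4.64% against 2.87%) and chromosome 23 (3.13% against 1.78%). Regions of all other patterns were near the medium-only share, at 4.52% and 3.22%. Outside clusters of 5 or more, all-4 regions were at 4.38% and 2.88%, so little of the contrast was left. High-only regions exceeded all-4 regions most on chromosome 23 (11 regions, 5.79% against 1.78%) and chromosome 12 (10 regions, 5.26% against 1.90%). Against medium-only regions, they were fewer on chromosome 18 (1.05% against 4.64%) and chromosome 1 (1.05% against 4.38%) and more frequent on chromosome 22 (5.79% against 2.97%) and chromosome 29 (5.79% against 3.03%). All other patterns were at 3.98% on chromosome 1, 3.25% on chromosomes 12 and 22, and 3.21% on chromosome 29.

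The share of regions that would have to move to another chromosome for 2 classes to match was 13.1% between medium-only and all-4 regions. Without the all-4 clusters it was 6.19%. Between high-only and all-4 regions it was 28.4%, and 25.2% without the clusters. The high-only class was also the smallest, and the part of counting error in its share was not tested.

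**Figure D4:**
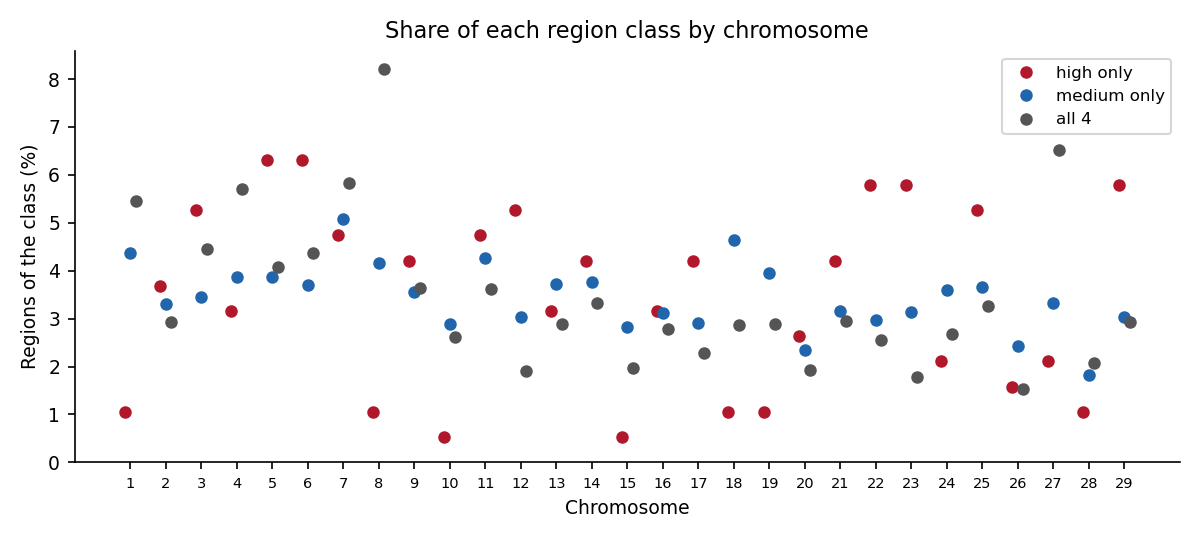
Share of the regions of each class (vertical axis, %) on each of chromosomes 1 to 29, with 1 point per class and chromosome. All-4 regions stand highest on chromosomes 8 (8.21%) and 27 (6.53%), where high-only regions are at 1.05% and 2.11%.

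Within all-4 regions the same place could be compared between eluates. Median peak width was 306 and 318 bp in the high libraries and 336 and 352 bp in the medium libraries. Both medium libraries lay above both high libraries, with a mean log2 difference of 0.14, yet 2 libraries against 2 cannot give less than the exact two-sided permutation p = 0.333 found here (adjusted p = 0.333 over 4 tests). In pairs, the median ratio of medium to high width was 1.06 and 1.07, and the medium peak was the wider one in 64.3% and 66.8% of the regions. The fragment lengths ran in the opposite direction. Width less fragment length was 103 and 115 bp in the high and 174 and 177 bp in the medium libraries.

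The same all-4 regions were measured in the tender libraries, which had no part in choosing them. Median widths there were 302 and 334 bp in the high (HTE) and 336 and 328 bp in the medium (MTE) libraries, which overlapped. Less fragment length they were 123 and 138 bp against 179 and 182 bp, which did not overlap. Over all 8 libraries, the medium peaks exceeded the fragment length by 178 ± 3.37 bp (SD, n = 4) and the high peaks by 120 ± 14.7 bp (n = 4). The exact two-sided permutation test over 8 libraries gave p = 0.0286, the smallest it can give, and takes them as independent. Fragment length alone also separated the eluates, at 179 to 203 bp in the high and 146 to 175 bp in the medium libraries. Part of this difference was thus the subtracted length itself, and the test does not show wider medium peaks. In the 4 pairs of equal number, which were taken as 1 animal each, the difference was positive in 4 of 4 and the exact sign-flip permutation test gave p = 0.125, the smallest for 4 pairs, so the call below 0.05 was lost with the pairing. For widths as listed, the log2 difference was 0.10, with an exact permutation p = 0.0571 over libraries and an exact sign-flip p = 0.25 over pairs. Depth moved with the eluate here as well, and its part in the width was not tested.

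Pileup ranks of all-4 regions kept much of their order between eluates and were shifted upwards in the medium lists. Across the 7567 regions, which are not independent and share libraries, Spearman's rho between high and medium rank was 0.94 in pair 1 and 0.93 in pair 2, against 0.97 between the high and 0.95 between the medium replicates. The median rank was 16.2 and 11.7 percentile points higher in the medium library. The rank was higher in the medium library of both pairs in 6538 regions (86.4%) and higher in the high library of both in 175 (2.31%). The medium lists were also longer, which enters a percentile, and its part in the shift was not tested. Summits of the 2 eluates lay 32 and 28 bp apart at the median, against 19 bp between the high and 20 bp between the medium replicates. They were within 50 bp in 66.6% and 67.7% of the regions, against 75.8% and 71.6% between replicates.

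The top and the bottom of the lists differed in what they shared. Among the 10% of peaks with the highest pileup, 98.4% of HTO_1, 99.2% of HTO_2, 87.8% of MTO_1 and 88.7% of MTO_2 lay in all-4 regions. Among the lowest 10% the shares were 40.4%, 17.9%, 3.54% and 3.53%. The strongest peaks of the medium lists thus lay in all-4 regions less often than those of the high lists, and the difference in depth runs the same way. The highest 10% held 998 and 1157 peaks in the high lists and 2370 and 2471 in the medium lists.

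The classes were next looked up in the 8 libraries not used to define them. The tender libraries came from other animals, whereas the LTO libraries were further elutions of captures from the same kind of beef and were taken to come from the same 2 animals. High-only regions had a peak in 68.9% and 77.9% of cases in HTE_1 and HTE_2 and in 32.1% and 36.3% in MTE_1 and MTE_2. Group means were 73.4% ± 6.33 in HTE and 34.2% ± 2.98 in MTE (SD, n = 2 each). Medium-only regions had the opposite order, with 12.3% and 19.4% in HTE (15.8% ± 4.99) against 76.0% and 79.7% in MTE (77.8% ± 2.61). All-4 regions were found in 92.0% and 95% in HTE and in 95.8% and 97.2% in MTE. Regions of all other patterns had a peak in 14.1% and 19.3% in HTE and in 53.9% and 57.5% in MTE. In each of the 3 classes the 2 tender eluates did not overlap, and each exact two-sided permutation test over 2 and 2 libraries gave p = 0.333, the smallest possible (adjusted p = 0.333 over 4 tests).

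For high-only regions the excess in HTE rested on presence in both high tough libraries. Without HTO_1 the difference between HTE and MTE was 2.91 percentage points instead of 39.2, and without HTO_2 it was 7.39. At 10550 peaks per library, tender lists included, it was 59.7. For medium-only regions the difference was -62.0 points in the full lists, -65.5 to -51.5 without 1 library and -33.4 at 10550 peaks per library. For all-4 regions it was -3.03 points in the full lists and 13.2 at 10550 peaks per library, so its direction turned with list length.

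The low eluate separated the 2 eluate-specific classes further. High-only regions had a peak in 4.74% and 3.68% of cases in LTO_1 and LTO_2, the low libraries of tough beef, and in 2.63% in each low library of tender beef (LTE). Medium-only regions had one in 45.3% and 48.6% in LTO (47.0% ± 2.31, n = 2) and in 15.5% and 24.6% in LTE. All-4 regions had one in 71.6% and 75% in LTO and in 47.7% and 56.2% in LTE. Regions of all other patterns had one in 28.0% and 30.1% in LTO and in 8.03% and 13.6% in LTE. Low tough lists held 27783 and 28599 peaks on these chromosomes, more than either high list, and low tender lists 9555 and 16881.

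**Figure D5:**
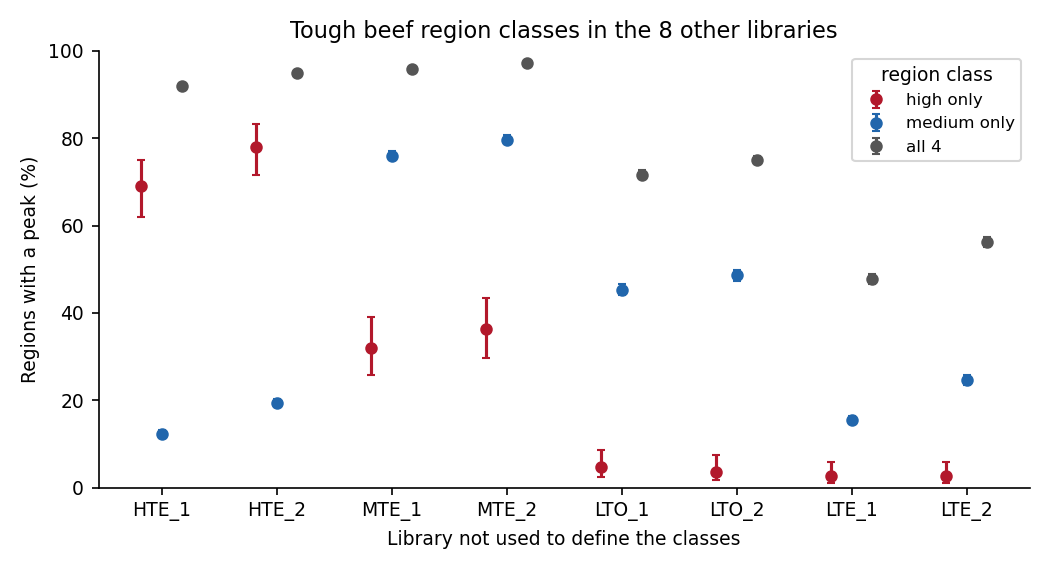
Share of the regions of each tough beef class with a peak (vertical axis, %) in each of the 8 libraries not used to define the classes, with Wilson 95% intervals for counting error. High-only regions stand above medium-only regions in HTE and below them in MTE, LTO and LTE, and all-4 regions stand highest in every library.

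Medium-only regions with and without a low partner differed in place and width. A peak in both LTO libraries was found in 1927 of them (31.9%), in 1 in 1815 (30.1%) and in neither in 2292 (38.0%). Of the first, 18.1% lay in the last 10% of a chromosome, of the second 27.5% and of the third 42.6%. Their median peak width in MTO_1 was 223, 204 and 195 bp, and in MTO_2 241, 223 and 212.5 bp, in the same order. The median pileup rank did not follow this order, at 38.6, 30.01 and 38.6 in MTO_1 and 38.3 in each of the 3 sets in MTO_2.

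The most eluate-specific regions were those with the same pattern in tender beef. Of high-only regions, 59 (31.1%) had a peak in both HTE libraries, in no MTE library and in no low library, and 50 of these 59 lay in the last 10% of a chromosome (84.7%). All-4 regions with the same tender and low pattern numbered 53, and 62.3% of them lay there. Of the 59, 27 also had no peak in the list that the authors called on the merged MTO replicates. Over all 190 high-only regions, 121 (63.7%) overlapped a merged MTO peak, at a median -log10 q of 6.79 against 8.94 for that list. Of medium-only regions, 1618 (26.8%) overlapped a merged HTO peak, at 7.21 against 13.2. A region without a peak in 2 single lists was thus often still above background in the merged reads, and high-only and medium-only describe single lists, not absence of methylated DNA.

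Of medium-only regions, 2122 (35.2%) had no peak in any low library. A peak in both MTE and both LTO libraries without HTE was found in 1151 regions (19.1%). A further 635 (10.5%) had both MTE libraries with neither HTE nor any low library. Of all-4 regions, 3221 (42.6%) had a peak in all 8 other libraries. No peak in any tender high or medium library was found for 17 high-only (8.95%), 598 medium-only (9.91%) and 30 all-4 regions (0.396%). The share over all regions was not computed.

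The same classes were built from the tender libraries, as a second run of the rule. There were 45968 tender regions, of which 20191 (43.9%) fell in a class, 316 high-only (0.687%), 11715 medium-only (25.5%) and 8160 all-4 (17.8%). Of tough high-only regions, 60 (31.6%) overlapped a tender high-only region, which were 61 regions or 19.3% of that class. Of tough medium-only regions, 2734 (45.3%) overlapped a tender medium-only region, 2736 or 23.4% of that class. Of tough all-4 regions, 6496 (85.8%) overlapped a tender all-4 region, 6510 or 79.8% of that class. Of tough high-only regions, 4 (2.11%) overlapped a tender medium-only region, and 9 tough medium-only regions (0.149%) overlapped a tender high-only region. The same shares over all tough regions were not computed, so these overlaps are a description. In tender beef too, high-only regions lay in the last 10% most often, 64.9% against 30.9% of medium-only and 25.1% of all-4 regions.

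The 5 high-only regions whose lower fold enrichment over both libraries was highest all lay in the last 10% of their chromosome. The first was chr10:103257025-103257399, 1.03 Mb from the end, with a pileup of 27 tags in HTO_1 and 32 in HTO_2 and a fold enrichment of 13.8 and 14.2. It had a peak in both HTE libraries, and in neither MTE nor any low library nor the merged MTO list. At chr29:49701418-49701943 the pileup was 35 and 53 tags at a fold enrichment of 12.2 and 13.8. This region had a peak in both HTE libraries, in MTE_1 and in the merged MTO list. At chr5:121061357-121061934 the pileup was 34 and 39 tags and the fold enrichment 10.9 and 10.99, and all 4 tender high and medium libraries had a peak.

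The region chr6:109499127-109499493 had 18 and 26 tags at a fold enrichment of 10.7 and 13.0. It shared the pattern of the chromosome 10 region, with both HTE libraries and no merged MTO peak. The fifth, chr2:136227056-136227410, had 15 and 25 tags at 10.6 and 13.6 and lay 0.831 Mb from the end. The widest high-only region was chr24:61790312-61791225 (914 bp, 23 and 41 tags), 0.922 Mb from the end. The next, chr14:2140441-2141208 (768 bp, 69 and 60 tags, fold enrichment 3.34 and 2.67), lay instead at the start of its chromosome. It was high in tags and low in fold enrichment, unlike the first 5.

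The 5 medium-only regions whose lower fold enrichment was highest lay outside the last 10% of their chromosome. The 1 on chromosome 14 lay near the start, at 1.28% of its length. All 5 had a peak in both LTO libraries. Over all medium-only regions, 30.3% lay in the last 10% and 31.9% had a peak in both LTO libraries. At chr17:51164190-51164467 the pileup was 30 tags in MTO_1 and 26 in MTO_2 at a fold enrichment of 18.6 and 16.0, with a peak in both MTE and all 4 low libraries and in neither HTE library. On the same chromosome, chr17:50644440-50644719 had 21 and 26 tags at 14.8 and 17.1. The region chr13:11030083-11030482 had 19 and 22 tags at 13.3 and 14.7, again with both MTE and all 4 low libraries and without HTE. In contrast, chr14:1086044-1086344 (31 and 40 tags, 13.7 and 15.5) and chr19:35941110-35941421 (35 and 27 tags, 15.2 and 13.5) had a peak in all 8 other libraries, high tender ones included. These 2 were thus medium-only in the single lists of tough beef and not in tender beef. In the merged HTO list the chromosome 14 region had a peak and the chromosome 19 region had none. The widest medium-only regions, chr20:71786918-71787744 (827 bp) and chr22:50921630-50922451 (822 bp), had 11 to 13 tags and a fold enrichment of 6.58 to 7.88. They lay 0.251 Mb and 10.5 Mb from the end of their chromosomes.

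The 5 all-4 regions whose lowest fold enrichment over the 4 libraries was highest are given as a description, since this choice itself favours regions with high values in both eluates. At chr21:70102720-70103234 the fold enrichment was 34.0 and 32.9 in the high and 34.1 and 33.6 in the medium libraries, with 253, 266, 264 and 284 tags. At chr2:123931135-123931598 it was 29.9 and 29.7 in the high and 34.9 and 32.2 in the medium libraries. The regions chr24:35875016-35875518, chr1:47770076-47770563 and chr7:462105-462485 had a fold enrichment of 29.1 to 34.0 in the 4 libraries. All 5 had a peak in every one of the 8 other libraries. The widest region, chr11:13094983-13099662 (4680 bp), had 266 to 296 tags but a fold enrichment of only 2.86 to 3.01. The next widest, chr3:95023290-95026102 (2813 bp), stood at 5.42 to 6.43.

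Of all-4 regions, 169 rose by more than 40 percentile points from high to medium in both pairs and 12 fell by more than 20, in lists of different length, and the 3 at each end are described. At chr21:27781024-27781403 the pileup was 6 tags in both high libraries and 24 and 23 in the medium libraries, and the rank went from 3.49 and 3.47 to 73.7 and 75.5. At chr20:9221139-9221506 it went from 7 tags in both to 20 and 19, and at chr5:29941906-29942258 from 6 in both to 18 and 16. In the opposite direction, chr1:155405603-155406478 had 13 and 23 tags in the high and 7 and 7 in the medium libraries, with ranks of 37.0 and 55.7 against 3.90 and 3.45. At chr2:98497465-98497749 there were 13 and 14 tags against 7 and 8, and at chr8:112933920-112934340 14 and 18 against 7 and 9. The 3 falling regions had no peak in any low library, and the 3 rising ones had a peak in both LTO libraries. The 175 regions of higher rank in the high eluate lay in the last 10% of a chromosome in 32.0%, against 22.7% of the 6538 of higher rank in the medium eluate.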

How the data were processed

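The authors aligned reads to bosTau8 with BWA (0.7.7 in the submitters' processing notes), kept unique reads and called peaks with MACS2 2.1.1.20160309 at q = 0.01, without input and with 1 tag per position. Merged replicates were called with 2.1.0.20150731. The deposited lists give pileup (a signal of tags, not divided by library size), fold enrichment (a ratio to local background) and −log10 q, all from the authors' MACS2 runs. Peaks were joined with Python 3.11.15, pandas 2.3.3 and scipy 1.17.1, and overlaps were checked against bedtools 2.31.1. The code was tested on simulated data. The classes, measures and lists were chosen with earlier results of these data known. Regions named are, per class, the 5 with the highest lower fold enrichment over its libraries and the 2 widest. For all-4 regions, the 3 that rose and the 3 that fell most in rank were added. Chromosomes named have the 2 largest differences in share each way between 2 classes. Depth was 3677473 to 6010993 tags after duplicate removal in the 4 libraries. Alternatives changed the peak threshold, list length, overlap, chromosomes, lists and libraries. Tests compare libraries, and intervals are Wilson intervals for counting error. Libraries of 1 beef with equal numbers were taken as 1 animal. Genes, sequences and reads were not analysed here.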

Additional observations from a re-analysis of the deposited data

How the results depend on the processing

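With a fold enrichment of at least 3, with 10550 peaks per library and in the merged lists, high-only regions numbered 302, 1298 and 698. Medium-only regions numbered 983 with 10550 peaks per library and 39820 in the merged lists, and all-4 regions 4990 with a fold enrichment of at least 3 and 15703 in the merged lists (where it means a peak in both). Without 1 library each, high-only counts were 410 to 740, medium-only counts 7097 to 13050 and all-4 counts 7788 to 9616. Leaving out a library also takes away 1 condition of the class definition. Regions and classes were built anew in each of these settings.

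The difference in peak width, all-4 minus high-only, was 35.25 bp with a -log10 q of at least 5, 29 bp with a fold enrichment of at least 3, 36 bp with 10550 peaks, 66.75 bp without the clusters and 50 to 76 bp without 1 library. All-4 minus medium-only was 149.75 bp with a fold enrichment of at least 3, 131.5 bp with 10550 peaks, 140 bp without the clusters, 115.5 bp with peaks up to 500 bp apart joined and 105 to 144 bp without 1 library. The difference in pileup rank from high-only peaks turned to -6.44 with a fold enrichment of at least 3, and was 31.9 with 10550 peaks, 2.29 without clusters and 22.6 to 31.9 without 1 library. That from medium-only peaks was 34.5 with 10550 peaks, 45.5 with peaks joined, 29.3 without clusters and 35.4 to 50.05 without 1 library.

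The share of medium-only regions within 10 kb of an all-4 region was 16.9% with a -log10 q of at least 5, 10.6% with a fold enrichment of at least 3, 37.8% with 10550 peaks, 13.0% with peaks joined and 14.6 to 24.8% without 1 library. For high-only regions it was 38.7% with a fold enrichment of at least 3, 11.1% with 10550 peaks and 18.4 to 22.6% without 1 library. The chromosome share of medium-only against all-4 regions was 8.20% with a fold enrichment of at least 3, 6.19% without clusters and 9.55 to 14.9% without 1 library. That of high-only regions was 20.8% with a fold enrichment of at least 3, 26.3% with 10550 peaks, 32.8% with peaks joined, 25.2% without clusters and 20.4 to 22.1% without 1 library. The share of high-only regions in the last 10% was 51.0% with a fold enrichment of at least 3, 53.9% with 10550 peaks and 55.1 to 62.8% without 1 library. That of medium-only regions was 27.9% with a -log10 q of at least 5, 32.0% with a fold enrichment of at least 3, 18.2% with 10550 peaks, 31.8% with peaks joined and 29.5 to 32.9% without 1 library.

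In tender beef the difference for all-4 regions, high minus medium, turned to 13.2 points with 10550 peaks, and was -11.1 to -1.51 without 1 library. Medium-only regions in low tough libraries were at 40.3% with a -log10 q of at least 5, 42.7% with 10550 peaks and 35.9 to 48.6% without 1 library. The log2 difference in all-4 width was 0.10 to 0.18 without 1 library. It was 0.58 for width less fragment length with tender libraries added (exact permutation p = 0.0286), a difference that the subtracted lengths enter. With the replicate block, the pairs of equal number, it was 0.14 (exact sign-flip permutation p = 0.5), and the blocked tests of tender presence also gave p = 0.5, the smallest that 2 pairs allow. Over the 4 pairs with tender beef the block gave p = 0.125 for width less fragment length (log2 0.58) and p = 0.25 for width as listed (log2 0.10) by exact sign-flip permutation tests, so the p = 0.0286 over unpaired libraries was lost. It changed no other call. High-only regions in tender beef differed by 2.91 to 43.7 points and medium-only regions by -65.5 to -51.5 points without 1 library. Of the alternatives, those on the last 10%, fragment length, the 4 pairs, clusters and tender or low libraries left out were added after seeing the data. The cause of these shifts was not tested. With 2 animals, no test between eluates in tough beef can pass 0.05, and the absence of a peak in the shallower high lists is limited by depth.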
